A study of Mus musculus with 15 samples.

Results

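The mitochondrial ribosome is built from proteins encoded in the nucleus, and the genes for these proteins carry the symbols Mrpl (large subunit) and Mrps (small subunit). Gene identifiers in the count files were matched to symbols, symbols made of Mrpl or Mrps, a number and at most 1 letter were taken, and genes with 10 or more counts in 3 or more of the 15 libraries were kept. This gave 77 genes, 48 for the large and 29 for the small subunit, of 78 symbols of this form and of 15958 genes that met the same count rule. The gene left out was Mrpl53, with a mean of 0.0667 counts per library. In the annotation 88.0% of its exon bases lie in another gene on the same strand. Reads in such bases are assigned to neither gene by the counter's default. The part of this overlap in the low count was not tested. The grouping follows the symbols, although the proteins of Mrps18a and Mrps30 are known to sit in the large subunit and that of Mrps36 is better known as part of the alpha-ketoglutarate dehydrogenase complex.

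The study measured total RNA of the mouse cornea, the clear front tissue of the eye, in animals with the genotype OPA1+/+ (wild type) or OPA1+/- (heterozygous), at the ages of 3 and 6 months. There were 4 libraries of OPA1+/+ at 3 months, 4 of OPA1+/- at 3 months, 3 of OPA1+/+ at 6 months and 4 of OPA1+/- at 6 months. The labels name neither the strain nor the kind of Opa1 allele, list no treatment, and do not say whether libraries came from separate animals, so p-values measure the spread between these libraries, which may be technical.

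Mitochondria keep a small genome of their own, and its messenger RNAs, all for subunits of the respiratory chain and ATP synthase, are translated on mitochondrial ribosomes. Each ribosome joins ribosomal RNA from that genome, mt-Rnr1 in the small and mt-Rnr2 in the large subunit, with nuclear-encoded proteins that are made in the cytosol and imported. Opa1 is a GTPase of the inner mitochondrial membrane that joins membranes and shapes the cristae, where the respiratory chain resides.

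The promoters of these genes were searched for short sequence motifs, which the choice by symbol did not use. RefSeq windows on build GRCm38.p6, from 250 bases before to 50 bases after the transcription start, were found for 68 of the 77 genes. The core bound by ETS family factors such as GABPA (CCGGAAG, either strand) stood in 23 of the 68 windows (33.8%) and in 11.9% of the 17492 windows of protein-coding genes. The core of NRF1, a factor known for nuclear genes of mitochondrial proteins (CGCATGCG, the same on both strands), stood in 7 (10.3%, against 2.55%). The YY1 core (AAGATGGC, either strand) stood in 12 (17.6%, against 3.21%). The TATA box letters (TATAAA, either strand) stood in 4 (5.88%, against 13.3%), and the E-box (CACGTG, the same on both strands) in 5 (7.35%, against 7.91%). Of the 26 ETS core matches, 22 began within 60 bases of the start, and 8 of the 12 YY1 matches began after it. A match is a run of letters and does not show that a factor binds. The comparison windows cover all protein-coding genes, whether or not the gene met the count rule. Windows of the 68 genes held a median of 21 CpG (C followed by G), against 13 over all these windows. The part of base composition in the motif shares was not tested. The bases before the start are shown for Mrpl3, the gene with the smallest p for genotype over both ages, Mrpl52, the gene with the highest level per kilobase, and Mrpl32, which holds 2 NRF1 cores, each read 5′ to 3′ on the gene's strand with the core letters in capitals, together with the run of bases between the starts of Mrps11 and Mrpl46.
Mrpl3, chr9:105053148-105053267, plus strand, ETS core: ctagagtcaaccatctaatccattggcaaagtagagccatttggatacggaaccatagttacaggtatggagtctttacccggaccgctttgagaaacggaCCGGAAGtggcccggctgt
Mrpl52, chr14:54426789-54426908, plus strand, ETS core: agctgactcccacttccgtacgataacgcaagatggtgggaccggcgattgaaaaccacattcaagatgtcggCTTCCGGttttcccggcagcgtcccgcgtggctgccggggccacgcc
Mrpl32, chr13:14613038-14613157, minus strand, NRF1 cores: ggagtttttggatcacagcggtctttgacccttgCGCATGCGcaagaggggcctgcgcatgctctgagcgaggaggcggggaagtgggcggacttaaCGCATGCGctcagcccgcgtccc
Mrps11 and Mrpl46, chr7:78783090-78783130, plus strand, between the starts: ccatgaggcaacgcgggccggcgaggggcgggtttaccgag

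Some of these genes have head-to-head promoters. Of the 68 genes, 20 (29.4%) had the start of a protein-coding gene on the other strand within 500 bases upstream, against 6.62% of all protein-coding genes with a window. The partners included other mitochondrial genes: Ndufb5, a subunit of respiratory complex I, beside Mrpl47, the mitochondrial seryl-tRNA synthetase gene Sars2 beside Mrps12, and Ptcd2 beside Mrps27. Many other partners, such as Tcp1, Psma2, Hira and Fau, are not known as mitochondrial genes. The share of mitochondrial genes among the partners was not compared with that over all genes. Mrps11 of the small subunit and Mrpl46 of the large subunit are each other's partners, and only 41 bases lie between their RefSeq starts. In the annotation used for the counts these genes overlap at their outermost starts, on opposite strands. The median level per kilobase of annotated exon was 6.71 for the genes with such a partner and 4.96 for the 48 without. It was 5.03 for the 23 genes with an ETS core and 5.83 for the 45 without. These classes were not compared per kilobase of coding transcript, so the part of gene length in these values was not tested.

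Libraries held 11673240 to 18194946 counts. The corneal epithelial keratin Krt12 stood at 26400 to 32900 CPM (raw counts scaled to 1000000 per library), and the stromal gene Kera and the endothelial gene Slc4a11 were found in every library, as the tissue label has it. Summed lens markers lay between 4.45 and 103 raw CPM and summed retina markers between 9.61 and 139, with both maxima in OPA1+/- 3 months replicate 4. A second library, OPA1+/+ 6 months replicate 1, had 133 CPM of retina markers. Summed conjunctiva markers were higher, at 382 to 781 raw CPM, with Krt13 the largest (median 437) and Muc5ac at no more than 0.305. Their group means were 676 and 552 at 3 months and 538 and 458 at 6 months, OPA1+/+ first. The 77 genes took 0.116% to 0.127% of a library's counts.

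Opa1 itself followed the labels. It stood at 67.8 ± 2.34 CPM (SD, n = 4) in OPA1+/+ and 50.9 ± 5.07 (n = 4) in OPA1+/- at 3 months, and at 69.3 ± 3.59 (n = 3) and 47.9 ± 1.06 (n = 4) at 6 months, with no overlap at either age. CPM values here and below use library totals adjusted by trimmed-mean (TMM) factors. The log2 fold change for genotype was -0.41 ± 0.06 (SE) at 3 months (edgeR quasi-likelihood test, Benjamini-Hochberg adjusted p = 0.0193) and -0.53 ± 0.06 at 6 months (adjusted p = 0.000623). At 3 months the adjusted p was 0.141 without OPA1+/+ replicate 1, and 0.0618, 0.0909 and 0.0667 without OPA1+/- replicates 2, 3 and 4.

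Transcripts of every one of the 77 genes were detected in all libraries, over a 28.6-fold range of levels. Mean counts per library ran from 11.7 to 626, with a median of 197. Levels are compared between genes as CPM per kilobase of annotated exon, unless the length of the coding transcript is named. Mrpl52 (19.7), Mrpl24 (19.4), Mrpl14 (19.1) and Mrpl9 (17.2) led the large subunit, and Mrpl47 (1.85), Mrpl48 (1.78) and Mrpl23 (1.1) were lowest in it. Mrps23 (12.8), Mrps21 (12.6), Mrps24 (10.9) and Mrps18c (10.3) led the small subunit, and Mrps22 (2.30), Mrps33 (2.08) and Mrps36 (0.688) were lowest. The ranges over the 15 libraries of Mrpl52 (17.7 to 24.8), Mrpl24 (17.8 to 21.3) and Mrpl14 (17.2 to 23.4) overlap, so the order among these leaders is within their spread, whereas Mrpl23 (0.956 to 1.26) lay below every library of Mrpl48 (1.47 to 2.14).

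**Figure D1:**
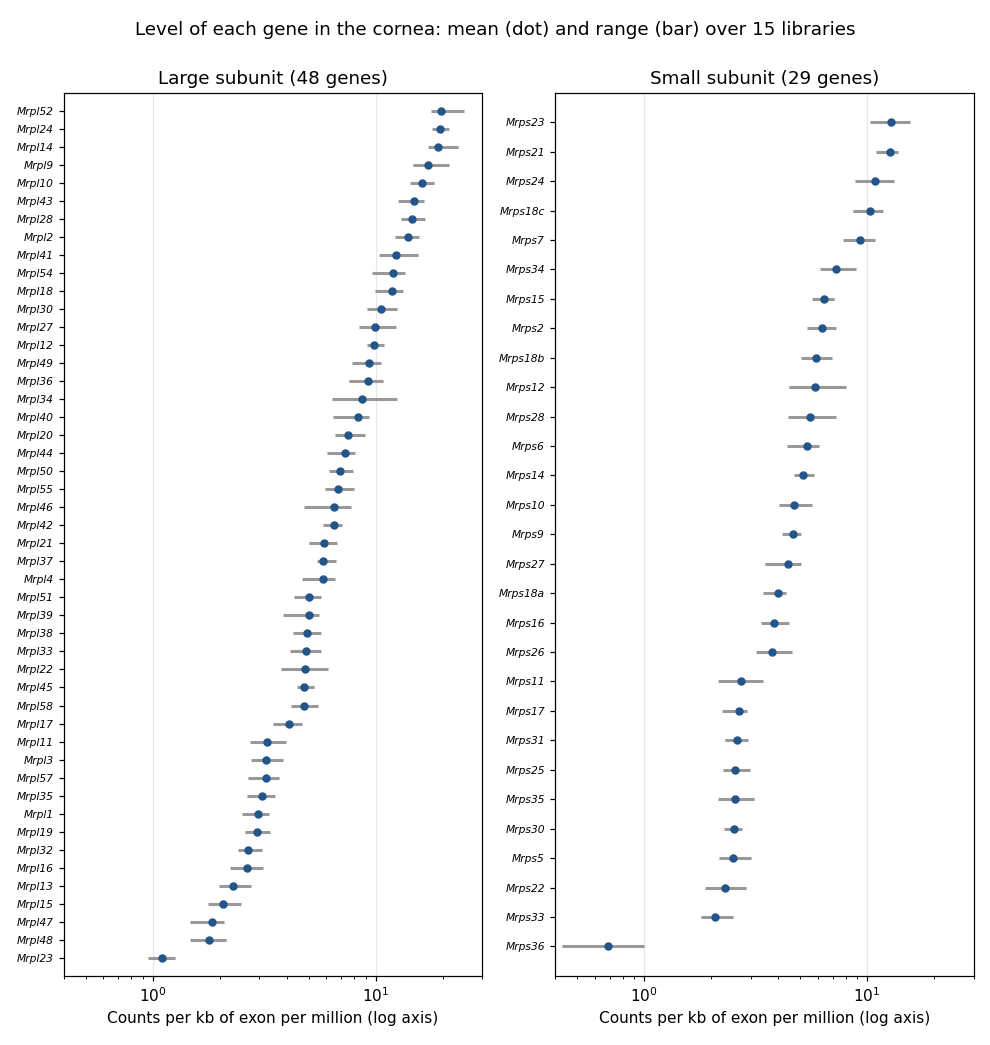
Mean level of each mitochondrial ribosomal protein gene (dot) with its lowest and highest library (bar), in CPM per kilobase of exon on a log axis, large subunit left (48 genes) and small subunit right (29 genes), over 15 libraries. Levels run from 0.688 for Mrps36 to 19.7 for Mrpl52, and most neighbours in the order overlap.

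The median level was 6.17 over the large subunit genes and 4.67 over the small subunit genes, against 4.16 over all 15958 genes that met the count rule and 96.9 over 84 ribosomal protein genes of the cytosol. The order within a subunit depends on the length used. Per kilobase of the median coding transcript of an older annotation (GENCODE M21), the medians were 13.2 and 8.92, Mrpl33 moved from rank 31 to rank 1 in the large subunit (75.0) and Mrps10 from rank 14 to rank 1 in the small (37.4). Mrpl52 (rank 2) and Mrps23 (rank 2) stayed near the top, Mrps36 stayed last in the small subunit, and Mrpl47 (2.43) replaced Mrpl23 (7.75) as the last of the large. Genes with a homolog in bacterial ribosomes had a median of 5.84 in the large subunit (28 genes) and 5.37 in the small (17 genes). The remaining genes, for which no bacterial homolog was listed, had medians of 6.49 (20 genes) and 2.58 (12 genes). Per kilobase of coding transcript the order turned in the large subunit, with 14.3 for genes with a homolog and 9.05 for the others, and kept its direction in the small, with 11.6 and 5.59.

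Members with particular roles lay between 2.30 and 10.3 in level per kilobase of exon, Mrps36 (0.688) aside. Mrpl12, whose bacterial counterpart recruits translation factors, stood at 9.86, and Mrpl44, a protein related to RNase III, at 7.26. Mrpl58, a peptidyl-tRNA hydrolase built into the large subunit that can free stalled chains, stood at 4.79, and Mrpl3, a core protein of the large subunit, at 3.23. In the small subunit Mrps34 stood at 7.24, Mrps12, a protein at the decoding centre, at 5.84, Mrps16 at 3.84 and Mrps22 at 2.30. The 3 Mrps18 paralogs differed: Mrps18c stood at 10.3, Mrps18b at 5.89 and Mrps18a at 3.97, with ranges over the 15 libraries that did not overlap (8.63 to 11.8, 5.05 to 6.96 and 3.41 to 4.31). Per kilobase of coding transcript the order changed, with 19.5 for Mrps18a, 17.4 for Mrps18c and 15.3 for Mrps18b. Of the exon bases of Mrps34, 37.0% are shared with Nme3 on the same strand, and 23.2% of those of Mrps18c with a predicted gene. Mrps24, among the leaders of the small subunit above, shares 15.4% with Urgcp. Mrps6 shares 19.9% with Slc5a3 and a predicted gene. The levels of these genes are therefore uncertain.

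The summed level of each subunit varied little between libraries. In OPA1+/+ at 3 months the large subunit genes summed to 351, 360, 375 and 388 CPM per kilobase, in OPA1+/- at 3 months to 367, 380, 382 and 364, in OPA1+/+ at 6 months to 355, 369 and 366, and in OPA1+/- at 6 months to 364, 367, 364 and 359. The groups overlapped throughout, and OPA1+/+ at 3 months alone spanned the lowest and the highest library of the series. The means were 368 ± 16.1 (SD, n = 4), 373 ± 9.34 (n = 4), 363 ± 7.35 (n = 3) and 364 ± 3.67 (n = 4) in the same order. The small subunit genes summed to 151 ± 8.83, 156 ± 3.61, 151 ± 4.29 and 152 ± 4.00, and libraries of OPA1+/+ at 3 months again held both extremes (141 and 163). The sum of the large over that of the small subunit lay between 2.27 and 2.50 in all 15 libraries, with group means of 2.44, 2.40, 2.41 and 2.40. In a bulk tissue such as this, fewer cells of a type and less RNA per cell cannot be told apart.

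**Figure D2:**
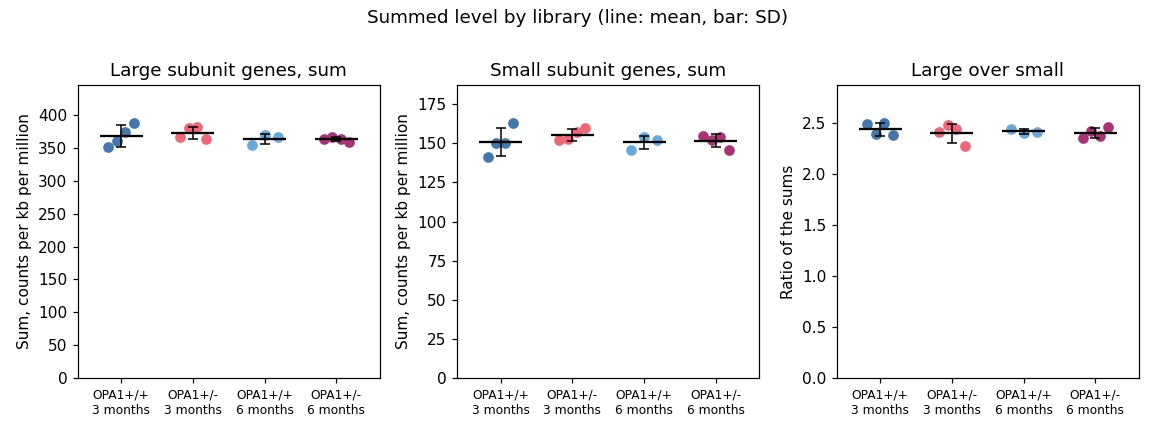
Summed level of the 48 large and of the 29 small subunit genes, in CPM per kilobase of exon, and the ratio of the sums, for each library (dots) by group, with the mean (line) and SD (bar). All 4 groups overlap in each panel, and OPA1+/+ at 3 months has the widest spread of both sums.

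Most single genes varied little between replicates. The coefficient of variation between libraries of a group had a median of 8.77% over the 77 genes, against 10.2% over all 15770 genes tested, and counting error alone would give a median of 7.12%. It was smallest for Mrpl24 (4.30%) and largest for Mrps36 (19.4%), which had a mean of 11.7 counts. Among genes with a mean of at least 1 CPM the widest spreads were those of Mrpl34 (19.1%), Mrpl22 (17.1%) and Mrps12 (15.3%). Mrpl34 stood at 3.85, 6.89, 7.52 and 4.44 CPM in the libraries of OPA1+/- at 3 months, and at 4.30 to 5.79 in those of OPA1+/+ at that age, so its heterozygous libraries lie on both sides of the controls.

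The genotype comparison at 3 months asks whether the heterozygous cornea holds different amounts of these transcripts. None of the 77 genes passed the threshold of 0.05 on the adjusted p, where 1 of 15770 genes did (0.00634%), Opa1 itself. At an unadjusted p under 0.05 there were 2 (2.6%), Mrpl19 and Mrps11, both higher, against 9.03% of all genes tested. DESeq2 and limma voom also called none, with 0 and 2 genes at that unadjusted p. The log2 fold changes had a median of 0.018 and ran from -0.47 to 0.28, 44 of 77 were above 0, and 74 of the 77 had a 95% interval inside -0.5 to 0.5. All genes tested had a median of 0.003, and 67.7% of them had an interval inside those limits. The median SE was 0.093 over the 77 genes and 0.104 over all genes tested. The width of an interval depends on the counts of a gene, and genes of like counts were not compared.

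Mrpl19, a core protein of the large subunit, stood at 14.7, 15, 14.2 and 15.2 CPM in OPA1+/+ and at 16.0, 17.8, 16.7 and 16.0 in OPA1+/- at 3 months. All heterozygous libraries lay above all controls, and the log2 fold change was 0.17 ± 0.08 (SE; edgeR adjusted p = 0.523). Mrps11, a small subunit protein, stood at 5.57, 4.64, 4.64 and 5.62 CPM in OPA1+/+ and at 5.98, 5.59, 7.13 and 6.15 in OPA1+/-, a log2 fold change of 0.28 ± 0.13 (edgeR adjusted p = 0.542). One heterozygous library of Mrps11 lay among the controls. Mrpl46, the head-to-head partner of Mrps11, stood at 9.45, 8.35, 9.60 and 11 CPM in OPA1+/+ and at 9.23, 10.4, 9.16 and 8.29 in OPA1+/-, a log2 fold change of -0.05 ± 0.12. Mrps36 had the change farthest from 0, -0.47 ± 0.27 (edgeR adjusted p = 0.646), on 11.7 counts per library. Mrpl14 and Mrps10, the other two with the smallest p, were 0.17 ± 0.09 and 0.14 ± 0.08 higher on the log2 scale (edgeR adjusted p = 0.587 and 0.642). Beside Mrpl19, Mrps18b (higher) and Mrpl37 (lower) had groups without overlap, 3 of 77 genes where 4.6% of all genes tested had none.

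At 6 months none of the 77 genes passed by edgeR, DESeq2 or limma voom, where edgeR called 51 of 15770 genes (0.323%). At an unadjusted p under 0.05 there were 3 (3.9%), against 10.2% of all genes, and 2 by DESeq2 and 3 by limma voom. The median log2 fold change was 0.007, with 43 of 77 above 0 and 75 intervals inside -0.5 to 0.5.

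Mrpl33, a small protein of the large subunit, stood at 33.8, 30.1 and 32.5 CPM in OPA1+/+ and at 33.6, 38.1, 41.5 and 37.0 in OPA1+/- at 6 months. The lowest heterozygous library lay just under the highest control, and the log2 fold change was 0.23 ± 0.08 (edgeR adjusted p = 0.254). Mrpl3 stood at 22.8, 25.5 and 23.5 CPM in OPA1+/+ and at 20.3, 20.0, 19.8 and 21.9 in OPA1+/-, without overlap, a log2 fold change of -0.22 ± 0.09 (edgeR adjusted p = 0.389). Mrpl51 stood at 20.3, 21.4 and 22.2 CPM against 20.0, 19.9, 18.5 and 17.3, also without overlap and also lower in OPA1+/-, by -0.17 ± 0.08 (edgeR adjusted p = 0.466). Mrps7, a core protein of the small subunit, differed by -0.19 ± 0.09 and Mrps10 by 0.17 ± 0.09 (edgeR adjusted p = 0.488 and 0.544). Groups did not overlap for 4 of 77 genes, Mrpl3, Mrpl51 and Mrps7 (lower in OPA1+/-) and Mrps17 (higher), where 11.3% of all genes tested had no overlap.

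Averaged over both ages, which has more libraries and smaller median errors than the genotype contrast at either age, 0 of 77 genes passed by edgeR, DESeq2 or limma voom, where edgeR called 125 of 15770 genes (0.793%). At an unadjusted p under 0.05 there were 4 (5.19%) by edgeR and by DESeq2 and 5 by limma voom, and 12.4% of all genes tested by edgeR. The median log2 fold change was 0.019 over all 77, 0.015 over the large and 0.028 over the small subunit genes, and 47 of 77 were above 0. The median SE was 0.069, and 76 of the 77 intervals lay inside -0.5 to 0.5, against 77.6% for all genes. The one outside was Mrps36 (-0.10 ± 0.21), the only member whose interval also included the change of Opa1 itself (-0.47).

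Mrpl3 had the smallest p in this contrast. At 3 months it stood at 20.9, 22.6, 21.6 and 23.0 CPM in OPA1+/+ and at 18.5, 18.3, 19.4 and 24.4 in OPA1+/-, and only OPA1+/- 3 months replicate 4, at 24.4, lay above the controls. Over both ages the log2 fold change was -0.17 ± 0.06 (edgeR adjusted p = 0.224). Without that replicate, the library with the most lens and retina transcripts, it was -0.23 with an adjusted p of 0.0493, the one case among 15 fits with a library left out in which any of the 77 genes passed. The part of lens and retina transcripts in this value was not tested. Over the 22 alternatives tried for this contrast the adjusted p of Mrpl3 lay between 0.0493 and 0.423. Mrps10, a small subunit protein, stood at 32.4, 32.6, 34.4 and 39.5 CPM in OPA1+/+ and at 36.9, 35.8, 38.8 and 41.7 in OPA1+/- at 3 months, and at 32.5, 36.9 and 42.4 against 45.9, 38.4, 43.3 and 40 at 6 months. Its groups overlapped at both ages, with the highest control above some heterozygous libraries each time. Mrpl19 (0.15 ± 0.06) and Mrps10 (0.16 ± 0.06) were higher and Mrpl51 (-0.13 ± 0.05) and Mrpl58 (-0.12 ± 0.06) lower, with edgeR adjusted p of 0.267, 0.277, 0.302 and 0.431. The 16 members that are known disease genes in humans, Mrpl3 and Mrpl44 among them, had a median of -0.020, with 6 of 16 above 0.

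**Figure D3:**
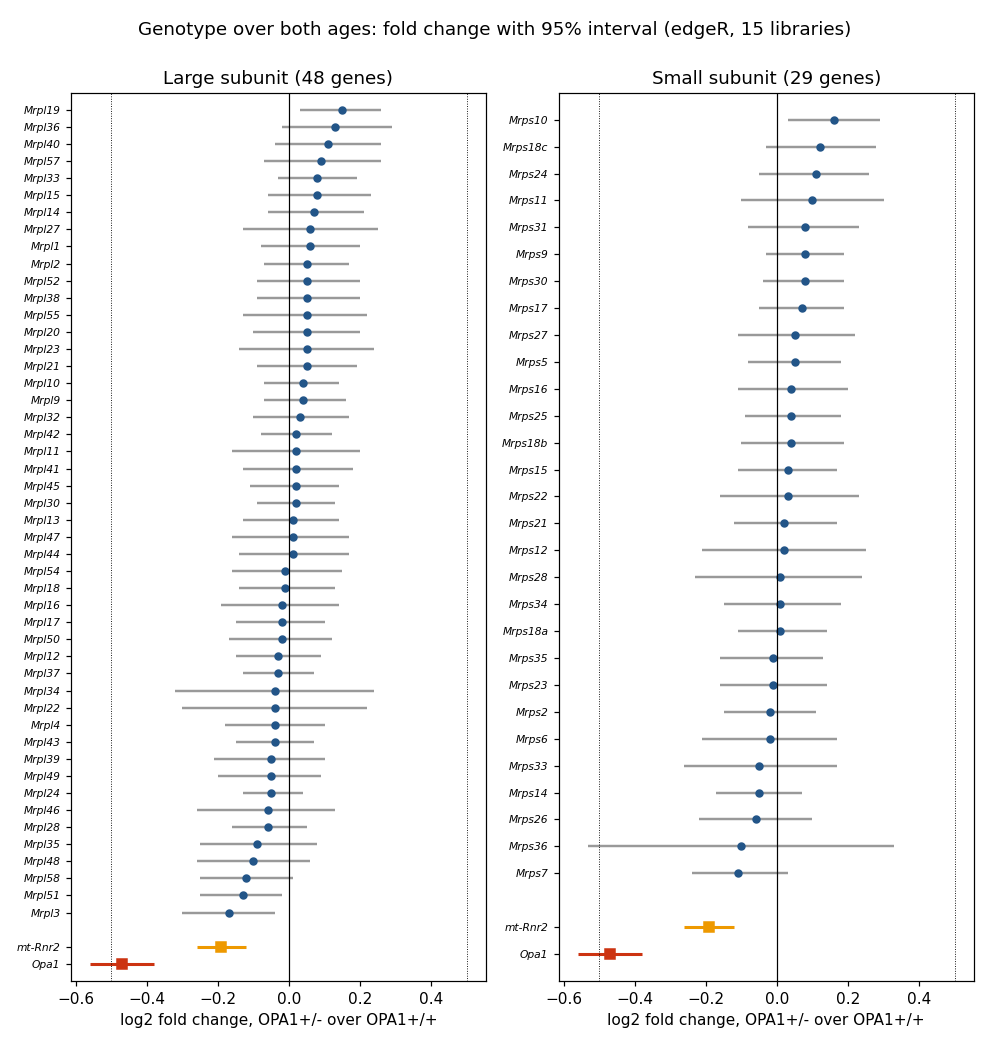
Log2 fold change of OPA1+/- over OPA1+/+, averaged over both ages, with its 95% interval for each large subunit gene (left, 48) and small subunit gene (right, 29), ordered by size, with Opa1 and the ribosomal RNA gene mt-Rnr2 at the bottom of each panel. Dotted lines mark -0.5 and 0.5, and of the 77 genes only Mrps36 has an interval that crosses one.

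Age gave no called member either. From 3 to 6 months in OPA1+/+, 0 of 77 genes passed by edgeR, DESeq2 or limma voom, where edgeR called 8 of 15770 (0.0507%), and 3 (3.9%) had an unadjusted p under 0.05 against 10.2% of all genes, with 2 by DESeq2 and 2 by limma voom. These were Mrpl33 (-0.21 ± 0.08, edgeR adjusted p = 0.315), which went from 39.4, 38.9, 32.7 and 38 CPM to 33.8, 30.1 and 32.5, Mrpl41 (-0.26 ± 0.11, adjusted p = 0.417) and Mrps11 (0.31 ± 0.14, adjusted p = 0.457). Mrps24 (-0.21 ± 0.11) and Mrpl42 (-0.14 ± 0.07) came next, with edgeR adjusted p of 0.520 and 0.523. The groups of Mrps11 did not overlap, nor did those of Mrps5, Mrpl19 and Mrpl43 (higher at 6 months) and Mrps36 (lower), 5 of 77 genes where 8.14% of all genes tested had no overlap.

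In OPA1+/-, 0 of 77 genes passed by the same 3 tools with age, where edgeR called 13 of 15770 (0.0824%). None had an unadjusted p under 0.05 by edgeR or DESeq2 and 3 had one by limma voom, against 9.05% of all genes by edgeR. The smallest edgeR p was that of Mrpl14 (-0.18 ± 0.09, adjusted p = 0.557), followed by Mrpl43 (-0.15 ± 0.07, adjusted p = 0.563). Mrps34 (-0.22 ± 0.11), Mrps17 (0.15 ± 0.08) and Mrps5 (0.15 ± 0.09) came next, with edgeR adjusted p of 0.565, 0.605 and 0.634. Mrps17 and Mrps16 (both higher) had groups without overlap, 2 of 77 where 6.04% of all genes tested had none.

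Over both genotypes, 0 of 77 genes passed with age by the 3 tools, where edgeR called 65 of 15770 (0.412%), and 5 (6.49%) had an unadjusted p under 0.05 by each tool, against 11.9% of all genes by edgeR. Mrpl41 (-0.18 ± 0.07), Mrps24 (-0.18 ± 0.07) and Mrpl9 (-0.12 ± 0.06) were lower at 6 months, and Mrps22 (0.22 ± 0.09) and Mrps5 (0.15 ± 0.06) higher, with edgeR adjusted p from 0.311 to 0.382. The median over the 77 genes was -0.002, and 76 of 77 intervals lay inside -0.5 to 0.5.

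The interaction tests whether the genotype difference changed with age. By edgeR 0 of 77 genes and 0 of 15770 (0.0%) passed, DESeq2 and limma voom called none of the 77, and 2 (2.6%) had an unadjusted p under 0.05 against 6.91% of all genes, with 1 by DESeq2 and 3 by limma voom. They were Mrpl33 (0.30 ± 0.10, edgeR adjusted p = 0.590) and Mrpl42 (0.22 ± 0.09, adjusted p = 0.655). Mrpl42 stood at 22.7, 24.8, 25.3 and 26.1 CPM in OPA1+/+ and at 24.0, 23.0, 22.9 and 22.8 in OPA1+/- at 3 months, and at 21.5, 22.3 and 23.6 against 24.4, 26.1, 24.9 and 23.1 at 6 months. The heterozygous libraries lay in the lower part of the control range at 3 months and mostly above the controls at 6 months. Mrpl33 stood at 34.7, 36.4, 34.5 and 36.2 CPM in OPA1+/- at 3 months, within the range of the controls of that age. The genotype comparisons, the age comparisons and the interaction share libraries, so the recurrence of Mrpl33 among their smallest p values is not independent. Mrps11 (-0.36 ± 0.19), Mrpl43 (-0.20 ± 0.11) and Mrps36 (0.74 ± 0.41) had the next smallest p, with edgeR adjusted p of 0.774, 0.779 and 0.790. Errors are larger here, and 69 of 77 intervals lay inside -0.5 to 0.5.

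**Figure D4:**
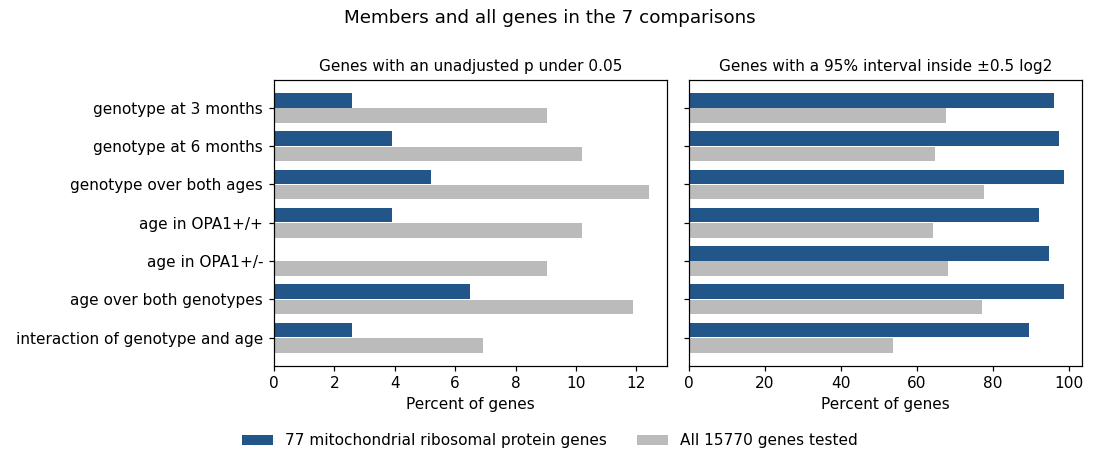
Percent of the 77 mitochondrial ribosomal protein genes (blue) and of all 15770 genes tested (grey) with an unadjusted edgeR p under 0.05 (left) and with a 95% interval of the log2 fold change inside -0.5 to 0.5 (right), for each of the 7 comparisons. The members have 0% to 6.49% on the left against 6.91% to 12.4% for all genes. Genes of like counts were not compared in either panel.

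The RNA partners of these proteins are encoded by the mitochondrial genome. Of these, mt-Rnr2, the RNA of the large subunit, fell in OPA1+/-. At 3 months it stood at 17800, 18800, 17700 and 18800 CPM in OPA1+/+ and at 14800, 16100, 16100 and 14800 in OPA1+/-, and at 6 months at 18100, 16500 and 17300 against 15400, 16200, 16000 and 15400. The groups did not overlap at either age. The log2 fold change was -0.19 ± 0.03 over both ages (edgeR adjusted p = 0.0141, with 0.00649 to 0.0391 when any 1 library was left out), -0.24 ± 0.04 at 3 months (adjusted p = 0.0755, in a range of 3.99e-05 by DESeq2 to 0.302 over the alternatives) and -0.14 ± 0.05 at 6 months (adjusted p = 0.281). In the same contrast over both ages all 48 protein genes of the large subunit lay between -0.17 and 0.15 and their median was 0.015.

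Ribosomal RNA was depleted before sequencing, per the labels' protocols, so these are the reads that remained, and the part of depletion in this difference was not tested. All counts from the mitochondrial genome, both ribosomal RNAs included, made up 2.82% to 3.10% of a library in OPA1+/+ and 2.50% to 2.72% in OPA1+/- at 3 months, and 2.77% to 2.96% and 2.60% to 2.74% at 6 months, without overlap. Most of these counts were mt-Rnr2 (group means of 15400 to 18300 CPM) and mt-Rnr1 (6410 to 7120 CPM). The shares are therefore not separate from the fall of mt-Rnr2. The RNA of the small subunit, mt-Rnr1, stood at 7120 ± 534 CPM (SD, n = 4) in OPA1+/+ and 6410 ± 367 (n = 4) in OPA1+/- at 3 months and at 6590 ± 324 (n = 3) and 6740 ± 281 (n = 4) at 6 months. Its log2 fold change was -0.15 ± 0.05 at 3 months (edgeR unadjusted p = 0.0117, adjusted p = 0.421). At 6 months it was 0.03 ± 0.06 (edgeR adjusted p = 0.912). Over both ages it was -0.06 ± 0.04 (edgeR adjusted p = 0.600), an average of values of opposite sign. The interaction of genotype and age for mt-Rnr1 was 0.18 ± 0.08 (edgeR adjusted p = 0.676).

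**Figure D5:**
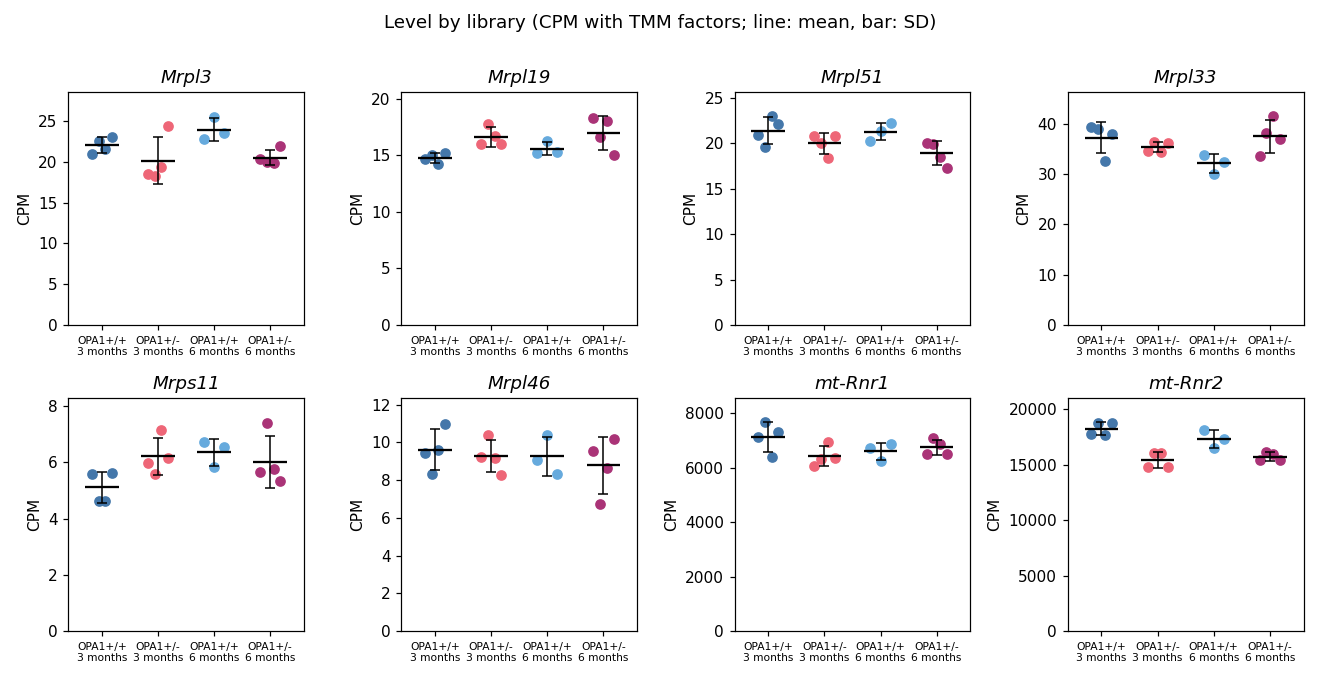
Level by library (dots) in CPM, with the mean (line) and SD (bar) of each group, for 6 mitochondrial ribosomal protein genes and the 2 mitochondrial ribosomal RNAs, on axes that start at 0. The heterozygous libraries of mt-Rnr2 lie below the controls at both ages, and Mrpl3 has 1 heterozygous library at 3 months, at 24.4 CPM, above all controls of that age.

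Other genes of mitochondrial translation were read from lists set from textbook knowledge. The 5 ribosomal proteins with other symbols, such as Dap3 and Aurkaip1 of the small subunit and Gadd45gip1 of the large, had log2 fold changes between -0.02 and 0.06 over both ages and none called. None passed for genotype over both ages among 33 tested genes of ribosome assembly and ribosomal RNA modification, 18 translation factors, 22 genes of aminoacyl-tRNA synthesis and 21 of mitochondrial transcription, in edgeR. At an unadjusted p under 0.05 there were 1, 0, 2 and 4 of them, where 12.4% of all genes tested had such a p and 0.793% passed. They included Fars2, the mitochondrial phenylalanyl-tRNA synthetase (-0.23 ± 0.07, edgeR adjusted p = 0.113), Gars, the glycyl-tRNA synthetase of cytosol and mitochondria (0.24 ± 0.07, adjusted p = 0.154, with 0.0388 without OPA1+/+ 3 months replicate 3 and 0.0489 by DESeq2, in a range of 0.0388 to 0.354 over the alternatives), Ngrn, a factor of ribosome assembly (-0.15 ± 0.06, adjusted p = 0.309), and the transcription factor gene Myc (0.24 ± 0.09, adjusted p = 0.252).

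Of the 13 messenger RNAs that mitochondrial ribosomes translate, 7 were tested. The files list mt-Co2, mt-Co3, mt-Atp8 and mt-Nd4l at 0 in every library, and mt-Atp6 and mt-Nd3 at no more than 0.0664 and 0.153 CPM, so they could not be read here. Over both ages 6 of the 7 had log2 fold changes below 0 and none passed in edgeR, with 2 at an unadjusted p under 0.05. Of all genes tested 51.2% had log2 fold changes above 0 in this contrast and 12.4% such a p. The one farther from 0 was mt-Co1, a core subunit of cytochrome c oxidase, at 1170 ± 155 CPM (SD, n = 4) and 1030 ± 30.3 (n = 4) at 3 months and 1300 ± 35.3 (n = 3) and 1080 ± 84.1 (n = 4) at 6 months, OPA1+/+ first. Its log2 fold change was -0.22 ± 0.06 (edgeR adjusted p = 0.0828). The adjusted p lay between 0.000974 and 0.209 over the alternatives, with the lowest without OPA1+/+ 3 months replicate 4, whose 943 CPM lay below every other library.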

How the data were processed

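Total RNA of mouse cornea was depleted of ribosomal RNA and sequenced in 75-base single reads from a strand-specific kit, per the labels' protocols. The deposited files hold raw read counts per gene that the authors made with featureCounts 2.0.1, with strand setting 2, summing exons by gene identifier of GENCODE release M28, per the file headers. Release M28 has coordinates on the build GRCm39, while mm10, an earlier build, and DESeq2 appear in the submitters' processing notes. No aligner is named in the sources used. Promoter windows, motif searches and sequences come from RefSeq on GRCm38.p6, matched by symbol, with 1 start a gene, the outermost.

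Of 55357 identifiers 94.1% had a symbol. Genes with enough counts by filterByExpr (15770, all 77 members among them) were tested with edgeR 4.0.16 (R 4.3.3), TMM factors and the robust quasi-likelihood test, with 1 mean for each of the 4 groups over all 15 libraries and Benjamini-Hochberg adjustment over all genes. A gene passed at an adjusted p below 0.05, and SE was taken as the size of the log2 fold change over the root of the F statistic. Library totals of 11673240 to 18194946 counts put 3 counts at 0.165 to 0.257 CPM, which covers counting error only. Levels per kilobase use the exon length in the files.

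The members and lists were chosen with earlier results of these data known. The genes named are those with the 5 smallest p in each comparison, the highest and lowest levels, members with stated roles and, of each list, some of its genes with the smallest p. Mrpl46 and the members whose groups did not overlap were named after their values were seen. Alternatives were DESeq2 1.42.0 size factors and its Wald test, limma 3.58.1 voom with sample weights, no filter and a filter at a mean of 1 CPM, only the groups compared, replicate number as a block and each library left out. Transcript length in place of exon length, and leaving out both libraries with the most lens transcripts, were chosen after seeing the data.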

Additional observations from a re-analysis of the deposited data

Results flagged for a closer look

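Of 99 groups of 4 libraries examined over 33 values, 2 had 1 library far from the other 3, where chance gives about 1 in 20 groups. Summed retina markers were 139 raw CPM in OPA1+/- 3 months replicate 4, against 16.5, 12.4 and 18.2 in the other libraries of that group. Mrpl42, a large subunit gene, stood at 24.0 CPM in OPA1+/- 3 months replicate 1 and at 23.0, 22.9 and 22.8 in the rest of the group, a gap that is wide only beside the narrow spread of those 3.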

How the results depend on the processing

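Over the 7 comparisons and all alternatives, 157 of 158 counts of called mitochondrial ribosomal protein genes were 0. For genotype over both ages the count was 0 to 1 with 1 library left out, the 1 being Mrpl3 without OPA1+/- 3 months replicate 4. The members' median log2 fold change for age in OPA1+/+ lay between -0.033 and 0.039 with 1 library left out, and was 0.039 without OPA1+/+ 6 months replicate 1. With the median coding transcript as length, the median level was 13.2 for the large and 8.92 for the small subunit, in place of 6.17 and 4.67. For mt-Rnr1 at 6 months the log2 fold change of 0.03 lay between -0.01 and 0.06 with 1 library left out, and was -0.01 without OPA1+/+ 6 months replicate 2. The call of Opa1 at 3 months was also lost under the replicate block (-0.41, adjusted p = 0.0515), with only the groups compared (-0.42, adjusted p = 0.057) and without both lens libraries (-0.33, adjusted p = 0.238). Those lens libraries were OPA1+/- 3 months replicates 3 and 4, so only replicates 1 and 2 of that group remained.

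With the replicate number as a block none of the 77 genes passed, and their median for genotype was 0.02 at 3 months, 0.019 at 6 months and 0.022 over both ages. Under the block 0, 48 and 90 of all genes passed in these comparisons. Libraries of different groups with the same number correlated at -0.139 to 0.232 in their deviations from the group means. Those with different numbers correlated at -0.182 to 0.263, so the numbers were not taken to pair the samples. The number of all genes called depends on the tool: for genotype at 3 months, at 6 months and over both ages, age in OPA1+/+, in OPA1+/- and over both genotypes, and the interaction, DESeq2 called 43, 177, 314, 117, 67, 240 and 20 and limma voom 5, 105, 244, 19, 32, 120 and 0. With no filter it was 45, 140, 256, 105, 83, 216 and 19. With 1 library left out, edgeR called 0 to 19 genes for genotype at 3 months and 2 to 84 at 6 months. It called 16 to 237 over both ages and 0 to 169 for age in OPA1+/+. The lowest counts at 6 months and over both ages came without OPA1+/+ 6 months replicate 2. The shares of all genes called, given above, are therefore uncertain. Depth limits Mrps36 most, at a mean of 11.7 counts a library.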
